A study of Mus musculus with 14 samples.

Results

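Germinal vesicle (GV) oocytes that had lost Mff were compared with GV oocytes that had kept it, across every gene of the deposited GV count table. The comparison uses 8 of the 14 libraries of the study, 4 labelled WT and 4 labelled CKO, and the other 6 (3 WT and 3 CKO libraries of ovulated oocytes) serve below as a second measurement of the same genotypes. Mice homozygous for a floxed Mff allele (Mff fl/fl) without Cre gave the WT oocytes, and the CKO oocytes carried Gdf9-Cre in addition. All 14 libraries therefore carry the floxed alleles, and the groups differ by the transgene and the deletion it makes. The Gdf9 promoter is active in oocytes, so somatic cells of the follicle should keep Mff. The libraries are labelled as single-cell transcriptomes made with a SMART-Seq protocol. The sources used here do not give how many oocytes and animals stand behind each library, the age of the mice or the deleted exons. P-values therefore reflect how far these libraries scatter, which may be technical in part.

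Mff is anchored in the outer membrane of mitochondria and in peroxisomes, where it serves as a receptor for the dynamin-related GTPase Drp1 (gene Dnm1l), which constricts the organelle until it divides. An oocyte at the GV stage rests in the prophase of meiosis I. Once fully grown it transcribes little and depends on stored messenger RNA and on a large pool of small, round mitochondria, which later supply the maturing egg and the early embryo.

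The 8 GV libraries held 26575593 to 28847424 counts each and detected 15410 to 16062 genes. Values below are CPM scaled with TMM factors (normalised CPM, where CPM is a gene's share of the library's counts on the usual fixed total) unless another scale is named. Of the 8, 3 libraries stood apart from the rest: WT 2, CKO 1 and CKO 2 gave 35.18% to 42.4% of their counts to their 100 most abundant genes, against 48.21% to 51.07% in the other 5, and the first principal component, with 52.26% of the variance, separated them. Most oocyte genes were abundant in every library, with the growth factors Gdf9 and Bmp15 at 5112 to 12144 and 3020 to 4150 CPM of the library total. Of 20 oocyte markers 19 averaged at least 5 CPM. Figla (16.3 to 34.7 CPM) and Ddx4 (15.1 to 34.2 CPM) were much lower than Gdf9, and Sohlh1 reached at most 0.143 CPM. Of the defining somatic markers, Foxl2 of granulosa cells reached at most 0.0753 CPM and was at 0 in 3 libraries, and the leukocyte gene Ptprc was at 0 in 7. Fshr lay at 0.143 to 1.29 CPM, Cyp17a1 at 0 to 3.68 CPM, Cyp19a1 at 32.4 to 56.9 CPM and Pecam1 at 16.2 to 36.2 CPM.

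Mff itself lost nearly all of its signal. On the deposited FPKM scale, which is per length and mapped fragment, WT libraries 1 to 4 read 438, 383, 364 and 457, which placed the WT mean at rank 230 of 18194 genes. The CKO libraries read 25.7, 23.3, 24.1 and 23.5. Every CKO library was far below every WT library, and the spread within each genotype was small beside the gap. In normalised CPM the level was 655 ± 209 in WT and 34.1 ± 6.20 in CKO (SD, n = 4 each), which is -4.27 as a log2 fold change (SE 0.31, 95% interval -4.94 to -3.59, adjusted p = 0.000103 by edgeR's quasi-likelihood test). The TMM factors added to the WT spread, since scaling by library totals alone gave 600 ± 64.1 and 35.4 ± 1.88 CPM, so that CKO kept 5.90% of the WT mean. The remaining 904 to 1060 counts per CKO library were well above 0. Fewer oocytes that still make the transcript and less of it in every oocyte cannot be told apart in these libraries, and whether the remaining counts lie outside the deleted exons was not tested. The gene (Entrez 75734) occupies chromosome 1, 82724890 to 82752390 in GRCm38.p6. Of 10 other genes of the table within 1 Mb of it, 5 were expressed enough to test, and their log2 fold changes lay between -0.05 and 0.35, with 0 called by edgeR or DESeq2 and 0 at an unadjusted p under 0.05.

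Mfhas1 was the other gene that passed the test, and it rose. It encodes a leucine-rich repeat protein of the ROCO family of GTPase-like proteins, first found amplified in malignant fibrous histiocytoma, and despite the similar symbol it is not related to Mff. WT libraries 1 to 4 held 27, 59, 48 and 29 counts of it, and CKO libraries 1 to 4 held 902, 537, 379 and 464. The lowest CKO library thus held far more than the highest WT library. Normalised to CPM the level went from 1.49 ± 0.309 in WT to 19.0 ± 2.87 in CKO (SD, n = 4 each), which is 3.66 as a log2 fold change (SE 0.25, 95% interval 3.11 to 4.21, adjusted p = 0.000103). On the FPKM scale it lay at 0.15 to 0.37 in WT and at 2.35 to 5.41 in CKO, so that even the raised level was low next to that of Mff in WT. The call was lost on unfiltered log2(FPKM + 1) values by limma, where the fold change was 1.81 (adjusted p = 0.11). That scale understates fold changes of genes with low values. With the filter kept, the same scale called 2 genes, Mff and Mfhas1, so the scale alone did not remove the call.

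The rise of Mfhas1 was seen in ovulated oocytes as well, in libraries that share none with the GV comparison. There WT libraries 1 to 3 read 5.28, 5.91 and 3.76 CPM and CKO libraries 36.2, 39.9 and 33.4 CPM, with no overlap, a log2 fold change of 2.87 (adjusted p = 0.000186). Mff fell there by 3.31 on the log2 scale (adjusted p = 0.000155). The interaction term was called for neither gene by edgeR. It was -0.84 for Mfhas1 (SE 0.37, adjusted p = 0.278) and 0.91 for Mff (SE 0.46, adjusted p = 0.358). With SEs of this size a difference between the stages is not excluded. Mfhas1 (Entrez 52065) lies on chromosome 8, 35587789 to 35679449. Of 8 other genes of the table within 1 Mb, 6 were tested, with 0 called by edgeR or DESeq2 and 2 at an unadjusted p under 0.05, which 6.66% of all tested genes had. Eri1, an exonuclease that trims histone messenger RNA and small RNA, came closest, with 40.2 ± 7.58 CPM in WT against 65.2 ± 12.2 in CKO (log2 fold change 0.70, adjusted p = 0.514). With limma's quality weights Eri1 was called (0.79, adjusted p = 0.0413).

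**Figure D1:**
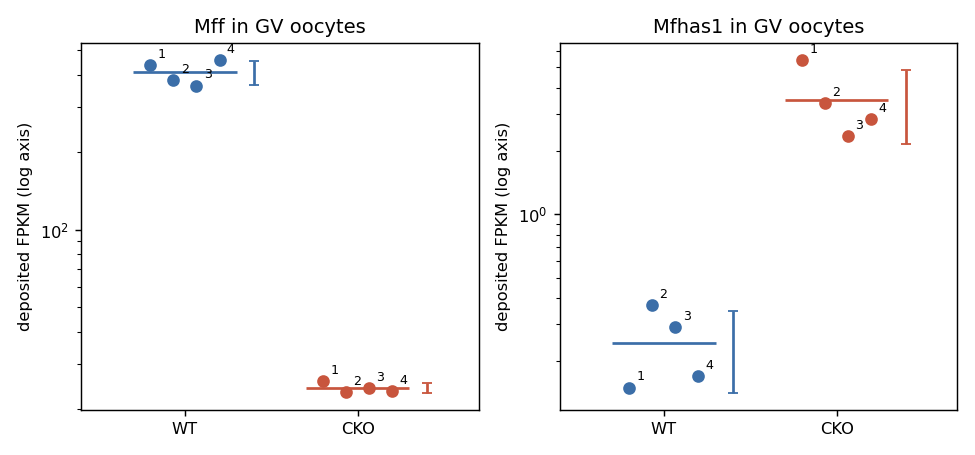
Deposited FPKM of Mff (left) and Mfhas1 (right) in each GV library on log axes, with the replicate number beside each point, the mean as a line and the SD as a bar (n = 4 per genotype). Mff lay at 364 to 457 in WT and 23.3 to 25.7 in CKO, and Mfhas1 at 0.15 to 0.37 in WT and 2.35 to 5.41 in CKO, with no overlap in either gene.

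Beyond these genes no GV change passed correction in the quasi-likelihood test. Among 12298 genes tested, 2 (0.0163%) were called, with 1 in each direction (0.00813% each). On the same libraries DESeq2 called 57 genes (0.464%, 35 higher and 22 lower) and limma's quality weights 114 (0.927%, 59 higher and 55 lower), both sets including Mff and Mfhas1. An unadjusted p under 0.05 was found for 819 genes (6.66%), of which 403 (3.28%) were higher and 416 (3.38%) lower in CKO. WT and CKO libraries did not overlap for 564 genes (4.59%), 324 higher (2.63%) and 240 lower (1.95%). A log2 fold change of at least 1 in size was estimated for 322 genes, 156 higher and 166 lower. The median over all tested genes was 0.03, and it was 0.16 when libraries were scaled by their totals alone, so directions of small changes depend on the scaling.

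How large a change these libraries leave room for depended on the level of the gene. The 95% interval of the fold change lay entirely within a 2-fold change in either direction for 7287 genes (59.3%), and its median half-width was 0.64 on the log2 scale. Among genes with a mean over 100 CPM the share was 75.4%, and at 20 to 100 CPM it was 78.3%. It dropped to 67.7% at 5 to 20 CPM, 45.2% at 1 to 5 CPM and 15.0% under 1 CPM. For most genes above 5 CPM a 2-fold change thus lay outside the interval, and for most genes under 5 CPM it lay inside.

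**Figure D2:**
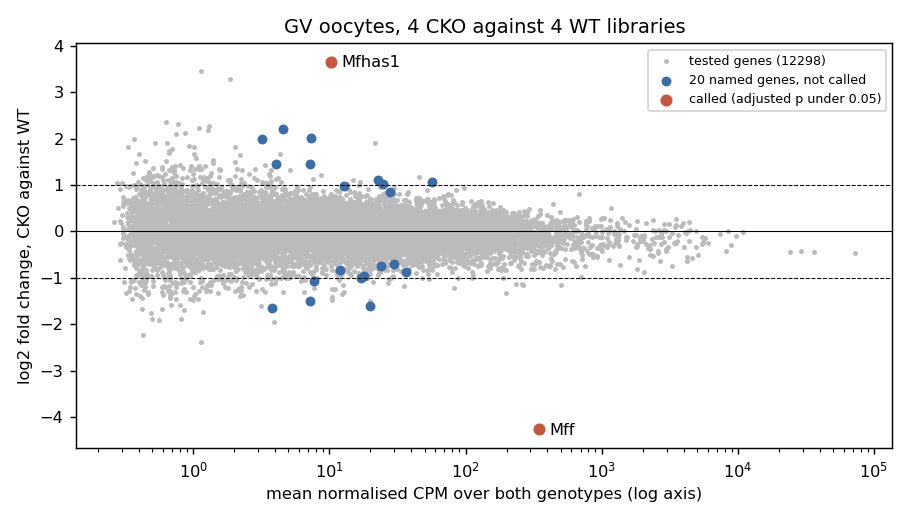
Log2 fold change of CKO against WT for the 12298 tested genes (vertical axis) by mean normalised CPM over both genotypes (horizontal, log axis), with dashed lines at a 2-fold change. Mff at -4.27 and Mfhas1 at 3.66 are the called genes (red), and the 20 named genes that did not pass the test (blue) lie between -1.64 and 2.21.

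The 10 genes with the smallest p among those higher in CKO, not overlapping between genotypes and above 5 CPM in 1 of them, did not pass the test but form the upper edge of the data. Hmgn3, a nucleosome-binding protein, read 2.65, 0.811, 1.76 and 1.30 CPM in WT libraries 1 to 4 and 7.40, 5.99, 11.3 and 5.32 CPM in CKO (log2 fold change 2.21, SE 0.38, adjusted p = 0.175). Hormad2, which sits on the axes of meiotic chromosomes, read 2.70, 1.97, 2.15 and 1.88 CPM in WT and 5.17, 5.47, 6.81 and 6.31 CPM in CKO (1.45, SE 0.24, adjusted p = 0.126). In both genes every CKO library lay above the highest WT library by a wide margin.

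Phlda2, an imprinted gene best known for restraining growth of the placenta, read 3.93, 4.52, 3.21 and 3.59 CPM in WT and 11.0, 8.94, 10.3 and 11.8 CPM in CKO (1.46, SE 0.22, adjusted p = 0.0735). Wls, which escorts Wnt ligands to the cell surface, measured 8.56 ± 1.78 CPM in WT against 16.9 ± 0.678 in CKO (0.98, adjusted p = 0.371). Acot3, a peroxisomal acyl-CoA thioesterase, measured 19.7 ± 2.30 and 35.7 ± 4.84 CPM (0.86, adjusted p = 0.371). Of the 100-base stretches of their transcripts, 15.9% are shared with other genes for Acot3 and 6.92% for Hmgn3, so part of their reads is of uncertain origin. Defb41, of the beta-defensin family, measured 1.28 ± 0.234 and 5.11 ± 2.38 CPM (1.99, adjusted p = 0.202), and its CKO libraries ranged widely, from 2.56 to 8.00 CPM.

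The remaining 4 of these genes have near-identical family members with which they share larger parts of their sequence, so the assignment of their reads is uncertain. All 100-base stretches of the Tmem254c transcripts (100%) occur also in Tmem254b, so its 2.88 ± 0.712 CPM in WT against 11.7 ± 3.54 in CKO (2.02, adjusted p = 0.0722) stood beside 13.4 ± 1.60 and 14.9 ± 2.38 CPM of Tmem254b, named after its values were seen. Gstp1, a glutathione transferase of antioxidant defence, measured 36.9 ± 6.30 CPM in WT against 76.9 ± 23.9 in CKO (1.06, adjusted p = 0.413), and 25.1% of its stretches are shared with Gstp2. Gstp2 itself, chosen after its values were seen, measured 9.49 ± 2.48 and 20.4 ± 10.2 CPM (1.10, adjusted p = 0.555). Zscan4c and Zscan4d belong to a cluster of zinc-finger genes known for their burst in the 2-cell embryo and for telomere maintenance.

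Zscan4c read 11.3, 13.7, 16.1 and 16.0 CPM in WT and 29.7, 26.5, 41.3 and 26.0 CPM in CKO (1.11, SE 0.22, adjusted p = 0.266). Zscan4d read 13.7, 14.5, 17.0 and 19.4 CPM in WT and 30.4, 28.8, 40.1 and 32.5 CPM in CKO (1.03, SE 0.20, adjusted p = 0.266). Both genes were highest in CKO 3, and every CKO library lay above every WT library, as the choice required. Copies elsewhere share 72.8% of the 100-base stretches of Zscan4c and 29.6% of those of Zscan4d, mostly Zscan4f, which was named after its values were seen and measured 10.2 ± 0.988 and 18.4 ± 7.40 CPM (0.85, adjusted p = 0.555).

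The likeness of the Zscan4 copies extends upstream of their start sites, which is why their 250 upstream bases are shown here from RefSeq (GRCm38.p6), each read 5′ to 3′ on the strand of its gene. Zscan4c stands at chr7:11005495-11005744 on the plus strand and Zscan4d at chr7:11166149-11166398 on the minus strand. Capitals mark every base without an identical partner in the alignment of the pair, including the 11 at one end of each that overhang because the annotated start sites are offset.
Zscan4c: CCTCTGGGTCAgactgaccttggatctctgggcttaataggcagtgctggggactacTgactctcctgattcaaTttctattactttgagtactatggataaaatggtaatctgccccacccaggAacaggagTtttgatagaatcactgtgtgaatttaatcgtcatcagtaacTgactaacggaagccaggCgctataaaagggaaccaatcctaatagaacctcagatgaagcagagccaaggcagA
Zscan4d: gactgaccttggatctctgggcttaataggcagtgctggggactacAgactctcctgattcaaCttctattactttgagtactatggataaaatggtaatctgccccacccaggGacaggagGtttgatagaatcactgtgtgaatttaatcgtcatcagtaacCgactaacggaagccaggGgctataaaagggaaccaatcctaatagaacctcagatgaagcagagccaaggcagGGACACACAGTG
Of 239 aligned bases 232 were identical (97.1%) and 7 differed.

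At the lower edge, the corresponding 10 genes also missed the threshold. Myo1e, a class I myosin that links membranes to actin, read 28.0, 21.5, 35.9 and 33.5 CPM in WT and 11.2, 7.33, 11.2 and 9.23 CPM in CKO (-1.61, SE 0.24, adjusted p = 0.0735). Nyap2, an adaptor of phosphoinositide 3-kinase signalling known from neurons, read 8.00, 8.79, 13.8 and 12.1 CPM in WT and 2.57, 6.19, 3.02 and 3.39 CPM in CKO (-1.49, SE 0.32, adjusted p = 0.355). Its CKO library 2 came closest to the WT range, while the other CKO libraries stayed under 4 CPM.

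Got1 and Slc25a13 both serve the malate-aspartate shuttle, which carries reducing equivalents from the cytosol into mitochondria. Got1, the cytosolic aspartate aminotransferase, read 66.8, 40.4, 40.2 and 42.2 CPM in WT and 24.7, 28.2, 26.8 and 23.2 CPM in CKO (-0.88, SE 0.21, adjusted p = 0.454). Slc25a13, the aspartate-glutamate carrier citrin of the inner membrane, read 23.5, 24.8, 28.1 and 17.4 CPM in WT and 8.96, 16.7, 11.6 and 11.2 CPM in CKO (-0.95, SE 0.24, adjusted p = 0.455). The margin was narrow for Slc25a13, where CKO 2 lay just under WT 4. The other components, chosen after these values were seen, spread around 0: Slc25a12, the sister carrier, had a log2 fold change of -0.36, Slc25a11 -0.20, Mdh2 0.00, Got2 0.12 and Mdh1 0.26.

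The other 6 lower genes showed smaller or sparser differences. Tenm3, a teneurin adhesion protein, had the largest estimate at low levels, 5.73 ± 1.42 CPM in WT against 1.84 ± 0.647 in CKO (-1.64, adjusted p = 0.266). Slamf1, a cell-surface receptor best known from lymphocytes, measured 22.7 ± 3.08 and 11.3 ± 2.79 CPM (-1.01, adjusted p = 0.413), and Trib2, a Tribbles pseudokinase, 15.4 ± 1.44 and 8.62 ± 0.988 CPM (-0.84, adjusted p = 0.446). Lhb, the beta subunit of luteinizing hormone, measured 10.4 ± 2.53 and 5.00 ± 1.20 CPM (-1.06, adjusted p = 0.454), and 6.74% of its 100-base stretches lie also in the neighbouring Ruvbl2. Clip4 and Tmem108 had the smallest estimates, -0.74 (adjusted p = 0.454) and -0.70 (adjusted p = 0.455), and Tmem108 shares 12.7% of its stretches with other genes.

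Since these 20 genes were picked by their GV values, they are read here against the ovulated libraries, whose values the rule did not use. The rule itself was set with earlier results of these data known. All 10 higher genes had a positive log2 fold change there, as did 58.1% of all genes with a positive one in GV oocytes. All 10 lower genes had a negative one there, as did 59.3% of all genes with a negative one in GV oocytes. Of the 10 higher genes 5 rose in ovulated CKO oocytes (Hormad2, Hmgn3, Defb41, Zscan4c and Gstp1), beside 6.44% of all genes tested there and 9.29% of those positive in GV oocytes. Of the 10 lower genes 4 fell (Nyap2, Trib2, Got1 and Slc25a13), beside 1.4% of all genes tested and 2.74% of those negative in GV oocytes.

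Hmgn3 read 7.12, 3.69 and 4.59 CPM in ovulated WT and 28.3, 25.6 and 33.2 CPM in ovulated CKO (log2 fold change 2.50, SE 0.35, adjusted p = 0.000759). Hormad2 read 0.899, 0.602 and 0.568 CPM in WT and 4.33, 4.93 and 4.42 CPM in CKO (2.71, SE 0.51, adjusted p = 0.00436). Gstp1 read 31.2, 30.8 and 47.3 CPM in WT and 71.7, 88.1 and 77.8 CPM in CKO (1.12, SE 0.27, adjusted p = 0.0179). None of the 3 overlapped between genotypes in ovulated oocytes, whereas in GV oocytes the choice itself required this. How many of all genes were without overlap in ovulated oocytes was not counted, so this separation has no background to be set against. Zscan4c rose by 1.56 (adjusted p = 0.0216) and Defb41 by 2.14 (adjusted p = 0.022) on the log2 scale, and Zscan4d was at 1.19 (adjusted p = 0.0553).

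Among the lower genes, Nyap2 read 6.22, 4.29 and 6.56 CPM in ovulated WT and 1.13, 0.842 and 0.920 CPM in ovulated CKO (-2.56, SE 0.47, adjusted p = 0.004). Got1 read 42.2, 50.1 and 39.0 CPM in WT and 14.7, 13.4 and 16.6 CPM in CKO (-1.56, SE 0.28, adjusted p = 0.00331). Slc25a13 read 28.7, 29.4 and 39.7 CPM in WT and 11.9, 12.9 and 7.25 CPM in CKO (-1.61, SE 0.32, adjusted p = 0.00657). In ovulated oocytes every CKO library lay under 17 CPM for both shuttle genes. Among the other shuttle components, chosen after values were seen, Mdh2 rose in ovulated CKO oocytes (1.62, adjusted p = 0.0448 by edgeR). Slc25a12 (-0.91), Slc25a11 (-0.47), Mdh1 (-0.18) and Got2 (0.15) were not called there. Trib2 fell by 1.39 (adjusted p = 0.0247). Phlda2, Wls and Acot3 were not called in ovulated oocytes (0.80, 0.12 and 0.37, adjusted p = 0.17, 0.865 and 0.471), nor were Myo1e and Tenm3 (-0.95 and -0.68, adjusted p = 0.105 and 0.444). The interaction term, called for 3.26% of the genes tested for it, was called for 0 of the 20 by edgeR, with 4 at an unadjusted p under 0.05 (Hormad2, Wls, Nyap2 and Got1), and for 1 by DESeq2.

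**Figure D3:**
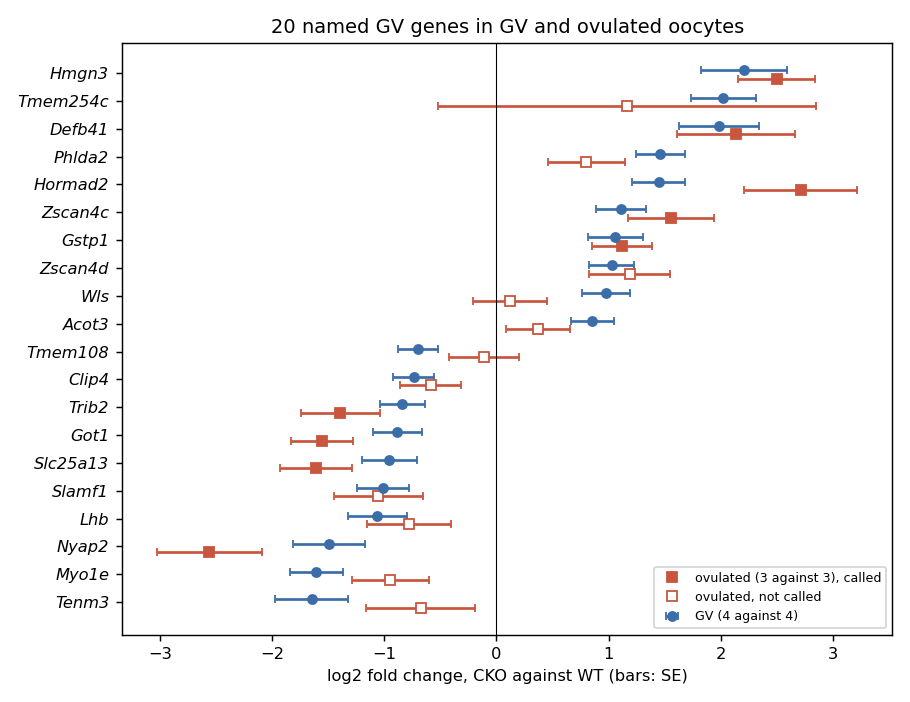
Log2 fold change of CKO against WT with its SE for the 20 named genes, in GV oocytes (blue circles, 4 against 4 libraries) and ovulated oocytes (red squares, 3 against 3, filled where called). Every gene lies on the same side of 0 at both stages, and 9 of the 20 squares are filled.

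Over the wider set of genes whose GV groups did not overlap, Mff and Mfhas1 left aside, the ovulated libraries leaned the same way without being uniform. Of 323 higher genes 302 were tested there, 217 had a positive fold change and 44 rose. Of 239 lower genes 216 were tested, 170 had a negative fold change, 31 fell and 1 rose. As background, 58.1% of all genes with a positive GV fold change were positive in ovulated oocytes and 9.29% rose, and 59.3% of those with a negative one were negative and 2.74% fell.

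Among the genes of mitochondrial fission, Mff was the 1 member called by edgeR, DESeq2 or limma's quality weights. Of 18 listed, 15 were tested. The median log2 fold change of the 15 was -0.04, beside 0.03 for all tested genes. Dnm1l, which encodes Drp1, read 76.2, 91.9, 85.3 and 72.9 CPM in WT and 106, 86.4, 81.4 and 86.6 CPM in CKO, with a 95% interval of -0.24 to 0.53 for its log2 fold change of 0.14. The genotypes overlapped.

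The receptors that could recruit Drp1 beside Mff, and the adaptors around them, gave similar values. Fis1, a small outer-membrane receptor, measured 17.6 ± 1.28 CPM in WT against 19.2 ± 2.65 in CKO (log2 fold change 0.13, interval -0.29 to 0.54). Mief1, which encodes the receptor MiD51, measured 36.9 ± 3.12 and 39.7 ± 6.22 CPM (0.11, interval -0.30 to 0.51). Mief2, which encodes MiD49, was not tested, with a mean of 0.03 FPKM in WT. For Dnm1l, Fis1 and Mief1 the whole interval lay inside a 2-fold change.

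In FPKM, which allows levels of different genes to be set side by side, Mff was the most abundant of the receptor genes in WT, at 411 ± 44.4, next to 31.8 ± 11.2 for Fis1 and 7.37 ± 1.57 for Mief1 (SD, n = 4). With Mff at 24.1 ± 1.08 FPKM in CKO, Fis1 at 36.8 ± 8.92 FPKM became the highest of the 3 by its mean. The libraries of Fis1 lay at 28.9 to 45.9 FPKM in CKO, above the 23.3 to 25.7 FPKM of Mff.

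Regulators of fission did not separate the genotypes either. Spire1, an actin nucleator with an isoform on mitochondria, had the smallest p after Mff, with 293 ± 49.8 CPM in WT against 212 ± 44.2 in CKO (-0.46, interval -0.96 to 0.03, adjusted p = 0.747). Mtfr2, a fission regulator, read 8.09, 12.3, 10.5 and 7.53 CPM in WT and 22.2, 21.0, 9.61 and 7.97 CPM in CKO (0.66, adjusted p = 0.763). Its high values came from CKO 1 and CKO 2, which are among the libraries that stand apart, and without WT 2, CKO 1 and CKO 2 its fold change was 0.02. The ubiquitin ligases March5 (0.20) and Mul1 (-0.36), the dynamin Dnm2 (-0.50), the phosphatase Pgam5 (-0.40), the carrier Slc25a46 (0.39), the SNARE Stx17 (-0.06), Gdap1 (0.01), Mtfr1 (-0.04) and Mtfr1l (-0.10) likewise overlapped between genotypes. In ovulated CKO oocytes Fis1 rose by 2.29 (adjusted p = 0.00241) and Mtfr1l by 1.96 (adjusted p = 0.00975), and for both the effect differed between stages (interaction 2.11, adjusted p = 0.0096, and 2.03, adjusted p = 0.0399). Of the 15 fission genes tested in ovulated oocytes 2 rose and 1 fell, where 6.44% of all genes tested rose and 1.4% fell. The interaction was called for 3.26% of all genes tested for it.

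**Figure D4:**
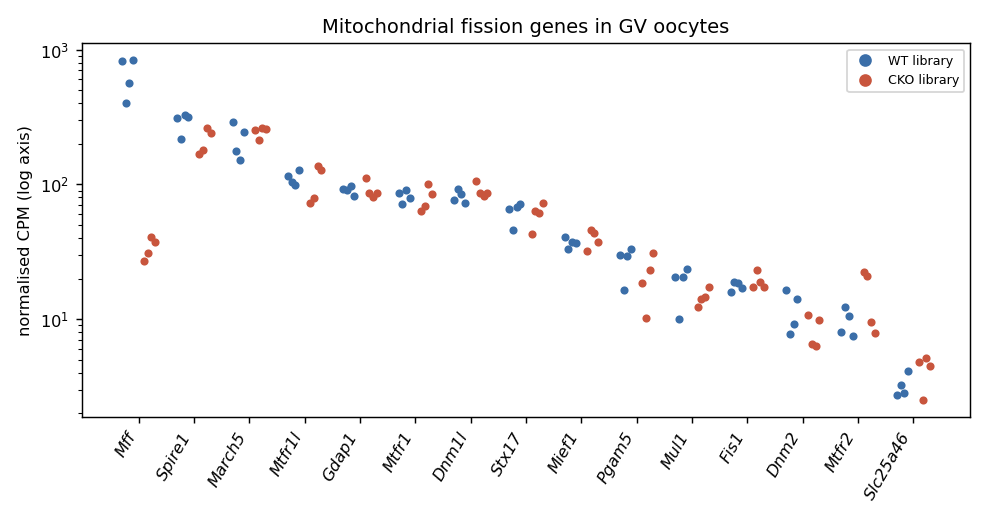
Normalised CPM of the 15 tested fission genes in each GV library (log axis), WT in blue and CKO in red, ordered by the WT mean. Mff lay at 402 to 831 CPM in WT and at 27.0 to 40.8 CPM in CKO, while the genotypes overlapped in all 14 other genes.

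The other 21 lists held 589 tested genes, of which edgeR called 0, and 32 (5.43%, against 6.66% of all genes) had an unadjusted p under 0.05. DESeq2 called 6 of the 589, namely Gstp1, Hormad2, Mterf2, Phlda2, Zscan4c and Zscan4d, and limma's quality weights 9, beside 0.464% and 0.927% of all genes tested by these tools. The 9 were the same 6 together with Lonp2, Slc22a18 and Zscan4f (adjusted p = 0.0413 each by limma's quality weights). Mitochondrial fusion and cristae, the machinery that opposes fission, had 18 tested members with a median of 0.07, 16 of them with an interval inside a 2-fold change (88.9%, against 59.3% of all genes). Its smallest p belonged to Chchd3 of the cristae-organising complex, at 40.8 ± 4.06 CPM in WT against 52.3 ± 8.41 in CKO (0.36, adjusted p = 0.763), and to the prohibitin Phb2, at 136 ± 61.8 and 87.3 ± 24.5 CPM (-0.64, adjusted p = 0.763). Motors and anchors that position mitochondria (16 tested) had a median of 0.04, with the outer-membrane GTPase Rhot2 at -0.45 (adjusted p = 0.763) and Mtx3 at -0.65 (adjusted p = 0.754).

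Respiratory chain and ATP synthase subunits that the nucleus encodes leaned upward by a small amount. Of 77 tested, 62 had a positive fold change (all genes: 6503 of 12298), with a median of 0.20 and a range of -0.49 to 0.66. On library totals the median was 0.31, beside 0.16 for all genes, and without the 3 libraries that stand apart it was 0.11. The interval lay inside a 2-fold change for 67 of the 77 (87.0%). Atpif1, the inhibitor of ATP synthase, had the smallest p, with 45.9, 49.4, 46.7 and 39.4 CPM in WT and 81.8, 79.6, 73.1 and 52.6 CPM in CKO (0.66, SE 0.19, adjusted p = 0.497). Uqcrb of complex III measured 26.3 ± 3.62 and 38.4 ± 10.4 CPM (0.55, adjusted p = 0.74). In ovulated oocytes 49 of the 77 rose, where 6.44% of all genes did, among them Atpif1 (2.03, adjusted p = 0.00369) and Uqcrb (2.08, adjusted p = 0.00204).

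Peroxisomes also divide through Mff, and their list (26 tested) had a median of 0.01. Lonp2, the peroxisomal Lon protease, read 98.8, 130, 72.7 and 102 CPM in WT and 161, 169, 161 and 149 CPM in CKO, clear of overlap (0.66, SE 0.20, adjusted p = 0.535), and it rose in ovulated CKO oocytes (1.37, adjusted p = 0.00548). In GV oocytes Lonp2 was called by limma's quality weights (adjusted p = 0.0413) but not by DESeq2 (adjusted p = 0.194). Pex14, a docking protein of peroxisomal import, measured 17.5 ± 8.46 and 9.59 ± 2.65 CPM (-0.86, adjusted p = 0.739).

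Of 104 tested genes of stress, antioxidant defence, mitophagy and apoptosis, edgeR called 0 in GV oocytes and 8 had an unadjusted p under 0.05 (7.69%). Gstp1 was called by DESeq2 (adjusted p = 0.0198) and by limma's quality weights (adjusted p = 0.0124). In the integrated and mitochondrial stress response (26 tested, median -0.12) the smallest p belonged to Atf3, at 2.53 ± 0.691 CPM in WT against 1.50 ± 0.200 in CKO (-0.75, adjusted p = 0.666), and to Trib3, a target of Atf4 and Ddit3, at 0.578 ± 0.237 and 0.246 ± 0.124 CPM (-1.15, adjusted p = 0.719). Both values were lower in CKO. Antioxidant genes (31 tested) had a median of 0.07, with Prdx6 at 0.69 (adjusted p = 0.738) beside Gstp1. Mitophagy and autophagy (25 tested) had a median of -0.12, with the mitophagy receptor Fundc1 at 0.48 (adjusted p = 0.746) and Becn1 at -0.44 (adjusted p = 0.763). Apoptosis (22 tested) had a median of 0.00, with the survival gene Bcl2l1 at -0.91 (adjusted p = 0.702) and Trp63, guardian of arrested oocytes, at 0.41 (adjusted p = 0.744).

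Metabolic and mitochondrial DNA lists also stayed near the median of all genes. Glycolysis and pyruvate entry (27 tested, median -0.06) had Pkm at -1.12 (adjusted p = 0.746) and the glucose transporter Slc2a1 at -0.58 (adjusted p = 0.763). Fat oxidation and the TCA cycle (34 tested, median -0.06) had Decr1 at 1.18 (adjusted p = 0.565) and Etfdh at 0.97 (adjusted p = 0.744), both at means under 2 CPM. Calcium handling (28 tested, median 0.10) had the uniporter Mcu at -0.49 (adjusted p = 0.732) and the outer-membrane channel Vdac2 at -0.56 (adjusted p = 0.741). Vdac2 fell in ovulated CKO oocytes by 1.31 (adjusted p = 0.00868). Mitochondrial DNA maintenance (23 tested, median 0.08) had Mterf2, a mitochondrial transcription termination factor, at 0.269 ± 0.174 CPM in WT against 1.23 ± 0.427 in CKO (2.10, SE 0.46, adjusted p = 0.371) and Ssbp1 at 0.51 (adjusted p = 0.699).

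Of 189 tested genes of oocyte identity and meiosis, edgeR likewise called 0 and 6 had an unadjusted p under 0.05 (3.17%). Hormad2 was called by DESeq2 (adjusted p = 1.52e-06) and by limma's quality weights (adjusted p = 0.0049). Meiotic arrest and resumption (37 tested) had a median of -0.02, with the kinase Mastl at 196 ± 21.3 CPM in WT against 260 ± 30.6 in CKO (0.41, adjusted p = 0.744) and the inhibitor of the anaphase-promoting complex Fbxo43 at 151 ± 37.9 and 99.1 ± 33.5 CPM (-0.60, adjusted p = 0.746). Spindle and chromosome segregation (50 tested) had a median of 0.00, with the kinesin Kif2c at -0.79 (adjusted p = 0.746) and Mad1l1 at -0.50 (adjusted p = 0.763). Oocyte transcription factors (21 tested) had a median of -0.10, with Sohlh2 at -0.64 (adjusted p = 0.744) and Tcf12 at 0.69 (adjusted p = 0.763).

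Secreted factors, zona and egg surface genes (15 tested) had the lowest median, -0.20, and it was -0.07 on library totals, where all genes had 0.16. Without WT 2, CKO 1 and CKO 2 it was -0.115, and the integrated and mitochondrial stress response then had a lower one, -0.17. Zp1 of the zona pellucida measured 1699.9 ± 593 CPM in WT against 1032 ± 359 in CKO (-0.72, adjusted p = 0.747), and Zar1, which helps store maternal transcripts, 250 ± 157 and 124 ± 29.0 CPM (-1.01, adjusted p = 0.729). Maternal-effect genes (43 tested) had a median of -0.16. Khdc3, of the subcortical maternal complex, read 411, 97.8, 204 and 416 CPM in WT and 49.2, 63.6, 174 and 165 CPM in CKO (-1.32, SE 0.51, adjusted p = 0.688). WT 2, CKO 1 and CKO 2, the libraries that stand apart, had the lowest 3 of the 8 values, and without them the fold change was -1.02 (adjusted p = 0.202).

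Meiotic prophase genes (28 tested, median 0.05) included, beside Hormad2, the synaptonemal protein Sycp3, at 8.46 ± 3.34 CPM in WT against 17.2 ± 4.31 in CKO without overlap (1.02, SE 0.32, adjusted p = 0.555). Early-embryo genes had the highest median of the 22 gene lists (markers of other cells aside), 0.37 over 15 tested members, of which 10 were positive and 4 had an interval inside a 2-fold change (26.7%). The Zscan4 copies are among these members. Imprinted genes (24 tested, median 0.20) were led by Phlda2 and by Slc22a18, which measured 1.07 ± 0.572 CPM in WT against 2.99 ± 1.08 in CKO (1.50, SE 0.42, adjusted p = 0.469). Nonsense-mediated decay (15 tested, median 0.02) had Upf3b at 0.44 (adjusted p = 0.732) and the helicase Upf1 at -0.49 (adjusted p = 0.747).

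**Figure D5:**
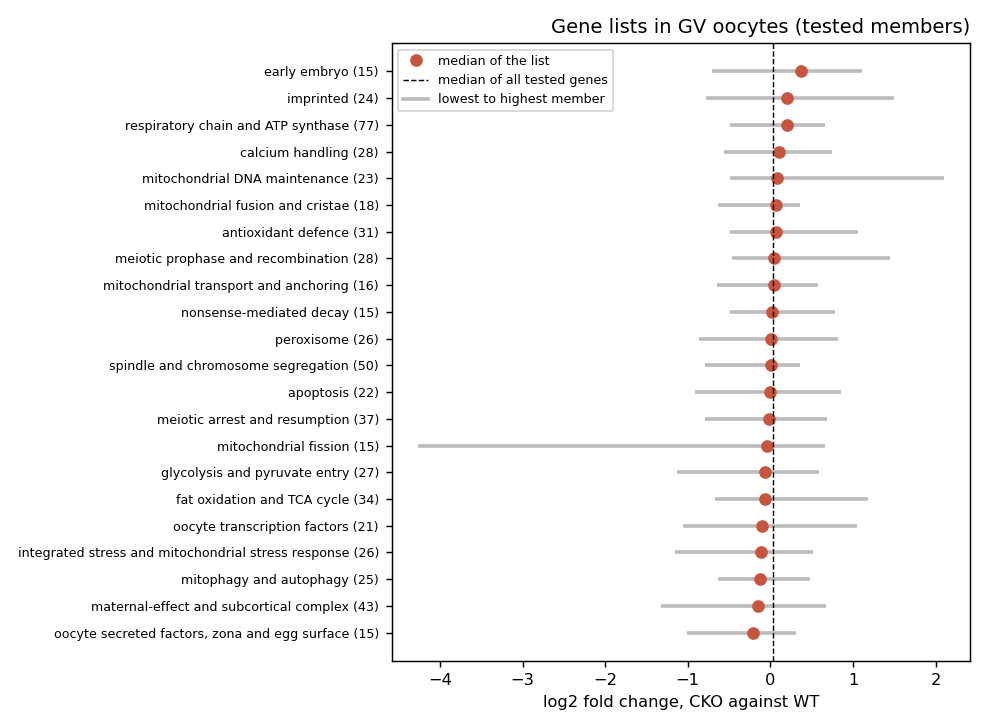
Median (red point) and range (grey line) of the log2 fold change of CKO against WT for the tested members of the 22 gene lists, with the number tested in parentheses and the median of all tested genes (0.03) as a dashed line. List medians lie between -0.20 and 0.37, and the longest line is that of fission, which ends at Mff.

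Markers of other cells did not separate the genotypes as sums. Except for theca and stroma, these sums rest mostly on a few genes, so they say little about the other markers. Granulosa and cumulus markers (16 of 28 in the table tested) summed to 209 to 302 CPM of the library total in WT and 174 to 328 CPM in CKO. Most of this sum came from Esr2 (120 to 209 CPM) and Cyp19a1 (32.4 to 56.9 CPM). The median log2 fold change of the 16 tested was 0.43, and it was 0.03 without WT 2, CKO 1 and CKO 2. Of the 16, 0 were called by edgeR or DESeq2 or had an unadjusted p under 0.05. Theca and stroma markers summed to 2.28 to 6.67 CPM in WT and 1.59 to 12.2 CPM in CKO. All 6 of them that were tested had a positive log2 fold change, with a median of 0.68, which was 0.18 without WT 2, CKO 1 and CKO 2, and 0 were called by edgeR or had an unadjusted p under 0.05. The part of these markers in the results was not tested. Endothelial markers summed to 27.4 to 55.8 and 25.7 to 53.3 CPM, mostly from Pecam1 (16.2 to 36.2 CPM) and Tek (2.25 to 12.7 CPM). Blood and immune markers summed to 29.6 to 78.0 and 43.4 to 69.2 CPM, mostly from C1qb (27.7 to 69.5 CPM). Within them the macrophage gene Cd68 read 1.02, 1.19, 0.783 and 0.538 CPM in WT and 2.70, 2.48, 3.19 and 4.26 CPM in CKO, clear of overlap (1.82, SE 0.32, adjusted p = 0.175), while Ptprc was at or near 0 in all 8 libraries. Cd68 was called by edgeR without WT 2, CKO 1 and CKO 2 (2.25, adjusted p = 0.0181), but not in ovulated oocytes (0.52, adjusted p = 0.573). The endothelial receptor gene Flt1 measured 4.79 ± 1.05 and 2.48 ± 0.463 CPM (-0.95, adjusted p = 0.469).

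Leaving out WT 2, CKO 1 and CKO 2 raised the number of called genes. With 3 WT against 2 CKO libraries, 63 of 12351 genes were called (0.51%), 33 higher (0.267%) and 30 lower (0.243%), both Mff and Mfhas1 among them. Of the 20 uncalled genes named above, 12 passed in this fit. It uses libraries by which these genes were chosen for small p and no overlap, so their passing is not separate support. Hmgn3 (2.12, adjusted p = 0.0436), Tmem254c (1.90, adjusted p = 0.0104), Slc24a4 (1.71, adjusted p = 0.0181) and Phlda2 (1.63, adjusted p = 0.0104) had the largest rises after Mfhas1 at a level of at least 5 CPM. Slc24a4, a potassium-dependent sodium-calcium exchanger, read 2.34, 2.33, 1.84 and 1.93 CPM in WT and 2.49, 4.33, 7.27 and 6.03 CPM in CKO, with CKO 1 next to the WT range. The largest falls after Mff at that level were of Nyap2 (-1.81, adjusted p = 0.0181), Myo1e (-1.66, adjusted p = 0.00564), the predicted gene Gm43305 (-1.61, adjusted p = 0.0185) and Tenm3 (-1.44, adjusted p = 0.0339).

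These calls too can be read against the ovulated libraries. Of 32 higher genes other than Mfhas1, 31 were tested there, 30 had a positive fold change and 10 rose, beside 57.5% and 9.71% of all genes with a positive fold change in the same fit. Of 29 lower genes other than Mff, 27 were tested, 23 had a negative fold change and 6 fell, beside 57.4% and 2.52% of all genes with a negative one. None of either kind was called in the opposite direction by edgeR. Slc24a4 rose there by 2.64 (adjusted p = 0.00602). The number of calls thus depended on the 3 libraries, which number 1 WT and 2 CKO, while Mff and Mfhas1 were called with and without them.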

How the data were processed

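Per the file headers, the authors deposited 2 kinds of values for each stage: read counts by gene, and FPKM, fragments scaled to transcript length and mapped fragments. Among GV read counts above 0, 17.6% were not whole (tolerance 0.001), so these are estimated counts as deposited, with no normalisation. The genome build was mm10 per the submitters' processing notes, and neither aligner nor counter is named (not given in the sources used here). Of 18194 genes in the GV table, 18145 identifiers matched RefSeq's gene table of GRCm38.p6, which gave coordinates, and a GENCODE annotation gave the transcripts searched for shared 100-base stretches.

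Estimated counts were rounded and fitted with edgeR 4.0.16 under R 4.3.3 (genes kept by filterByExpr, TMM factors, robust quasi-likelihood F test, Benjamini-Hochberg adjustment over all tested genes, called at adjusted p under 0.05). The SE was taken from the F statistic, and the 95% interval from it and the t quantile. The same test served the ovulated libraries and the interaction, the CKO effect in ovulated minus that in GV oocytes. Scripts were tested on simulated counts. Libraries held 26575593 to 28847424 counts, and pairs of 1 genotype differed by more than counting noise (chi-square per degree of freedom of 20.28 to 336.3 over genes).

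Named were the called genes, the 10 higher and 10 lower uncalled genes with the smallest p whose groups did not overlap at a mean of at least 5 CPM in 1 group (no predicted genes), all tested fission genes, up to 2 genes with the smallest p from each other list, genes within 1 Mb of called genes, and up to 5 rises and 5 falls without WT 2, CKO 1 and CKO 2. The comparison, the gene lists and this rule were chosen with earlier results of these data known. Alternatives were median-of-ratios (RLE) factors, DESeq2 1.42.0, other filters, a replicate block, leaving out libraries, the top-100 share as covariate, limma 3.58.1 with quality weights or on log2(FPKM + 1 or 0.1), 1 fit over all 14 libraries and, added after the data were seen, library totals alone.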

Additional observations from a re-analysis of the deposited data

Results flagged for a closer look

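Within the 4 libraries of a genotype, 1 library lay far from the other 3 in 5 of 78 groups examined, where chance gives about 1 in 20. Got1 read 66.8 CPM in WT 1 and 40.2 to 42.2 CPM in the other WT libraries, and Gstp1 read 46.3 CPM in WT 1 and 33.5 to 34.1 CPM in the others. Both distances lie on the WT side, and CKO libraries stayed below 29 CPM for Got1 and above 50 CPM for Gstp1. Lhb read 6.78 CPM in CKO 4 and 4.20 to 4.59 CPM in the other CKO libraries. Spire1 read 219 CPM in WT 2 beside 312 to 326 CPM, and March5 read 214 CPM in CKO 2 beside 255 to 262 CPM; both libraries are among the 3 that stand apart.

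The CKO effect differed between GV and ovulated oocytes for 3 of the 81 genes named for GV oocytes, by the interaction term of edgeR, beside 3.26% of all genes tested for it. For Khdc3 of the subcortical maternal complex the difference was 3.85 (adjusted p = 0.0128), with a log2 fold change of -1.32 in GV and 2.58 in ovulated oocytes. The outer-membrane receptor gene Fis1 differed by 2.11 (adjusted p = 0.0096), from 0.13 to 2.29, and Mtfr1l by 2.03 (adjusted p = 0.0399), from -0.10 to 1.96.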

How the results depend on the processing

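Mff was called in all 21 alternative fits, with log2 fold changes of -4.41 to -4.03, and Mfhas1 in 20 of them, with 1.81 to 3.80 over the 21 and adjusted p up to 0.11 on unfiltered FPKM, where 1 gene was called. The GV count of 2 became 57 with DESeq2 (35 higher, 22 lower), 114 with quality weights (59 higher, 55 lower), 63 without WT 2, CKO 1 and CKO 2 (33 higher, 30 lower), 17 with the top-100 share as covariate (13 higher, 4 lower), and 4 with no filter or in 1 fit over all 14 libraries. Leaving out single libraries gave 2 to 5 calls: 5 without WT 2 and 3 without CKO 1. Intervals inside a 2-fold change numbered 7287 in the main fit (59.3% of 12298 genes). A new fit of only the 6329 genes with a mean of at least 10 CPM gave 4714 (74.5%), and unfiltered FPKM gave 15454 (85.1% of 18168 genes).

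In ovulated oocytes 942 genes were called, 1593 with DESeq2, 514, 565 and 461 without WT 1, 2 and 3, and 341 to 1652 over all single libraries left out (341 without CKO 2, 1652 without CKO 1). The interaction was called for 430 genes, 889 with DESeq2, 239, 231 and 231 when GV WT 1, 3 or 4 was left out, 269 and 224 when ovulated WT 1 or 2 was, and 129 to 1006 over single libraries left out (129 without ovulated CKO 2, 1006 without ovulated CKO 1). The cause of these shifts was not tested. Same-numbered GV libraries deviated together with r of -0.43, 0.28, 0.08 and 0.56, and number 4 alone correlated best with its own number, so the numbers were not taken to pair the GV libraries. In ovulated oocytes r was 0.13, 0.04 and 0.29, and 2 of 3 numbers correlated best with their own. With a replicate block the counts were 2 in GV, 1630 in ovulated oocytes and 262 for the interaction.

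The 20 uncalled genes kept the sign of their GV fold change in every fit that tested them, and each was called in 1 to 7 of the 20 or 21 fits. They were chosen for not overlapping between genotypes in these same GV libraries, so neither the kept signs nor these calls are separate support. Under 5 CPM most intervals reached past a 2-fold change, and whether deeper sequencing would narrow them was not tested.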

Other observations

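Some positions and families stood out among the uncalled genes, all chosen after their values were seen. Nyap2, lower in CKO at both stages, lies on the same chromosome as Mff (chromosome 1, 81076522 to 81367706) and ends 1.36 Mb before it, just outside the window of neighbours examined. Of the genes between it and Mff that fall inside that window, Rhbdd1 and Col4a3 were tested and were not called by edgeR, DESeq2 or limma's quality weights, and Irs1 and Col4a4 were too low to test. Defb41 and Slamf1 are on chromosome 1 too, 64.5 and 89.0 Mb from Mff.

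Phlda2 and Slc22a18 are neighbours in the imprinted cluster of distal chromosome 7. Slc22a18, an organic cation transporter family member, read 1.15, 0.541, 0.744 and 1.84 CPM in WT and 2.09, 2.03, 3.83 and 4.02 CPM in CKO, without overlap. The other tested genes of the cluster spread from -0.57 for Nap1l4 to 0.90 for Cdkn1c in log2 fold change, and all overlapped between genotypes. In this cluster the growth inhibitor Cdkn1c averaged 0.632 ± 0.321 CPM in WT against 1.18 ± 0.682 in CKO (SD, n = 4 each, adjusted p = 0.763).

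Among the proteins of chromosome axes and the synaptonemal complex, Hormad2 and Sycp3 were separated by genotype, whereas Hormad1 (0.17), Sycp1 (0.13) and Sycp2 (0.18) overlapped. Without WT 2, CKO 1 and CKO 2, Hormad1 (-2.98), Sycp1 (-0.41) and Sycp2 (-0.13) changed sign with none called by edgeR, Sycp3 was at 0.77 (adjusted p = 0.398) and Hormad2 at 1.55 (adjusted p = 0.0235). Of the Hmgn family, Hmgn3 alone did not overlap, with Hmgn1 at -0.18, Hmgn2 at 0.21 and Hmgn5 at 0.48, and without the same 3 libraries Hmgn2 was at -0.26 and Hmgn5 at 0.02. Without WT 2, CKO 1 and CKO 2 the fit also called the transcription factor gene Sox5 (-3.02, adjusted p = 0.0115), which fell in ovulated CKO oocytes (-1.87, adjusted p = 0.0465), and the pluripotency-associated Dppa5a (0.94, adjusted p = 0.0499), which rose there (2.43, adjusted p = 0.000155). With all 8 GV libraries edgeR called neither Sox5 (adjusted p = 0.265) nor Dppa5a (adjusted p = 0.469), and the mean of Sox5 lay under 5 CPM in both genotypes.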
